A study of Bos taurus with 6 samples.

Results

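Smooth muscle and other contractile cells pull on actin filaments with myosin II, and a small set of actin-binding proteins sets how stable those filaments are and when myosin may act on them. The 10 genes described here, among the 28200 rows of the count table, are TAGLN and TAGLN2 (transgelins), CNN1 and CNN2 (calponins), CALD1 (caldesmon), TPM1 and TPM2 (tropomyosins), ACTA2 (smooth muscle alpha-actin), MYL9 (a regulatory light chain of myosin II) and MYH11 (the smooth muscle myosin heavy chain). They were chosen by symbol, with earlier results of these data known, and each symbol stood on 1 row. In the mammary gland some of these genes are best known from the basal myoepithelial cells, which contract under oxytocin to eject milk. Several of the 10 are textbook targets of serum response factor (SRF) and its coactivators of the myocardin family.

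The RNA was that of cultured primary mammary epithelial cells from Holstein cattle, obtained by enzyme digestion of breast tissue. One group carried a KLF6 gene (a zinc-finger transcription factor) disrupted with CRISPR/Cas9, and the other was wild type, with 3 libraries in each. Neither the number of cultures behind a genotype nor whether the edited cells were 1 clone is stated, so p-values speak only for the spread among these 3 and 3 libraries, and that spread could be technical. The comparison asks which transcripts of this set differ in level when KLF6 is disrupted.

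Library totals ran from 17512892 to 18724879 counts. KLF6 itself fell from 519 ± 34.0 to 224 ± 6.48 CPM (SD, n = 3), where CPM is counts per 1e+06 counts of the scaled library. Of the markers of mammary epithelium, KRT5, KRT14, KRT8, KRT18, EPCAM and CDH1 were read in all 6 libraries at 153 CPM or more. The luminal markers KRT8 and KRT18 were lower in knockout libraries (log2 fold changes of -1.63 and -1.76). Of the basal keratins, KRT5 was lower too (-1.21) and KRT14 was higher (0.76), while EPCAM and CDH1 changed by 0.01 and -0.08. With the median log2 fold change of tested genes on chromosome 18 (0.32) taken out, CDH1 was at -0.40 (edgeR adjusted p = 1.48e-07). Among further luminal markers, ELF3 was lower (17.3 against 84.2 CPM in wild type) and CD24 higher (186 against 53.3 CPM). The rest were scarce: mean levels in knockout against wild-type libraries were 1.08 against 8.02 CPM for KRT19, 3.73 against 18.4 for MUC1 and 1.10 against 0.814 for GATA3. Wild-type replicate 3 stood apart from its group: the variance between its counts and those of either other wild-type library was 8.86 and 8.87 times what counting alone gives, and 2.25 to 2.74 times for the remaining pairs within a genotype.

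Of the 10 genes, 3 rose in knockout libraries (TAGLN, CALD1 and MYL9), 4 fell (ACTA2, MYH11, TPM1 and CNN2), 2 did not pass the test (TAGLN2 and TPM2), and CNN1 had too few reads to be tested. The background was high: 74.6% of the 13390 tested genes passed an adjusted p of 0.05 in edgeR's quasi-likelihood test, 37.1% as higher and 37.6% as lower, so 7 of 9 tested members is near the share of all genes. The same 7 members had no overlap between the genotypes, 3 with the knockout libraries above and 4 below, as did 76.2% of tested genes (37.9% above and 38.3% below). Of the 9 tested members 3 rose at least 2-fold, as did 10.8% of all tested genes, and 2 fell at least 2-fold, as did 11.5%. The median log2 fold change of the 9 tested members was -0.04, against -0.01 over all tested genes, and their median absolute change was 1.26 against 0.50. The set was chosen with earlier results of these data known, so these contrasts with all genes only describe it. MYH11 passed the filter on low counts through the wild-type libraries alone, so it enters these numbers only because it was higher there.

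**Figure D1:**
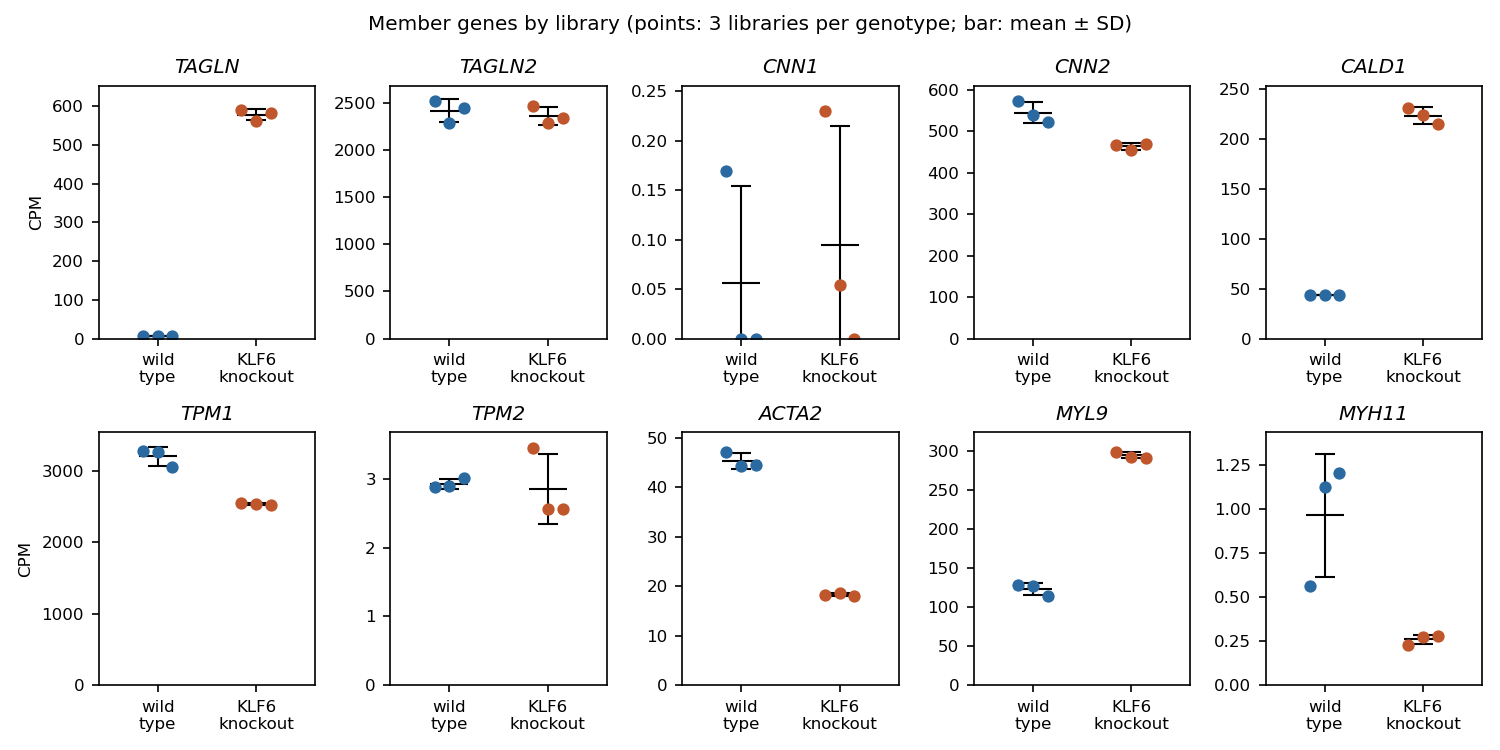
Level of each of the 10 genes in CPM, on a linear axis that starts at 0 and differs between panels. Points are the 3 wild-type (blue) and 3 KLF6 knockout (orange) libraries, and the bars give mean ± SD (for CNN1 the lower ends lie below the axis). The genotypes do not overlap for 7 genes and overlap for TAGLN2, TPM2 and CNN1.

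Levels per gene length put the set in order within each genotype. In wild type, TAGLN2 was the most abundant at 1795 ± 88.7 CPM per kilobase, followed by TPM1 (610 ± 24.3), CNN2 (253 ± 12.2), MYL9 (74.6 ± 4.66), CALD1 (21.5 ± 0.140), ACTA2 (17.0 ± 0.608) and TAGLN (4.08 ± 0.119). TPM2, MYH11 and CNN1 stood below 1 CPM per kilobase, at 0.985 ± 0.0233, 0.145 ± 0.0523 and 0.0370 ± 0.0641. In knockout libraries TAGLN2 (1754 ± 72.6) and TPM1 (484 ± 2.88) again led, and TAGLN came next, at 374 ± 9.08 CPM per kilobase, above CNN2 (215 ± 3.68), MYL9 (179 ± 2.41) and CALD1 (110 ± 4.0). TAGLN thus stood at position 7 in wild type and at position 3 in knockout libraries. Neighbours in each order did not overlap between libraries, except MYH11 and CNN1 at the bottom of both orders.

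The transgelins bind actin through a calponin-homology domain. TAGLN, an early marker of smooth muscle differentiation (chromosome 15, 27888817 to 27894507, in the coordinates of the count file, whose build is not stated), was at 590, 563 and 582 CPM in the knockout libraries and at 6.10, 6.43 and 6.39 CPM in wild type. Every knockout library lay far above every wild-type library, and the spread within a genotype was small beside the gap. The rise was 91.6-fold, with a log2 fold change of 6.52 ± 0.06 (SE, edgeR adjusted p = 3.99e-22), the 117th largest rise among the 13390 tested genes. It rested on 31081 reads in knockout and 345 in wild-type libraries, and the log2 fold change stayed between 6.50 and 6.54 with any 1 library left out.

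TAGLN2, the transgelin of epithelial and other non-muscle cells (chromosome 3, 9761198 to 9769010), was at 2470, 2280 and 2335 CPM in knockout and 2518, 2285 and 2446 CPM in wild-type libraries. The genotypes overlapped, and the log2 fold change of -0.03 ± 0.05 did not pass the test (adjusted p = 0.519). Tested genes on chromosome 3 had a median log2 fold change of -0.39, and with that median taken out TAGLN2 turned to 0.36 (adjusted p = 1.06e-06). The microRNA locus bta-mir-1584 lies inside TAGLN2 on the same strand, and its 26 reads in knockout and 46 in wild-type libraries are few beside the 126849 and 132011 of TAGLN2.

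Per gene length, TAGLN gave 17.2%, 17.7% and 17.8% of the transgelin reads (TAGLN plus TAGLN2) in knockout libraries and 0.210%, 0.244% and 0.227% in wild type. The mean share was 17.6 ± 0.324% against 0.227 ± 0.0171%. A two-sided exact permutation test over the 3 and 3 libraries gave p = 0.10, the smallest value this design allows (0.125 adjusted over the 5 family shares compared).

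Calponins and caldesmon bind actin and tropomyosin and hold back the myosin ATPase. CNN1, the smooth muscle calponin (chromosome 7, 15883405 to 15891295), had 4, 1 and 0 reads in the knockout libraries and 3, 0 and 0 in wild type. Its ratio of counts was 1.70 with a 95% counting interval of 0.330 to 10.9, so no difference could be seen at this depth. CNN2, the calponin of non-muscle cells (chromosome 7, 43534716 to 43543285), was at 467, 455 and 470 CPM in knockout and 575, 539 and 524 CPM in wild-type libraries. All knockout libraries were lower, and the fall was small, with a log2 fold change of -0.23 ± 0.04 (adjusted p = 0.000128). CNN3, the remaining calponin gene and not in the set, rose slightly (0.15 ± 0.05, adjusted p = 0.00662). CNN2 made up 45.5 ± 0.921% of calponin reads per length in knockout and 52.3 ± 0.752% in wild-type libraries, and CNN1 0.0132 ± 0.0168% and 0.00730 ± 0.0126% (two-sided exact permutation p = 0.70 for CNN1).

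CALD1 (chromosome 4, 98573632 to 98679000) was at 231, 224 and 215 CPM in knockout libraries and 43.5, 44.0 and 43.6 CPM in wild type. The 3 wild-type values were nearly equal, and all knockout values were higher. The rise was 5.10-fold (log2 fold change 2.35 ± 0.05, adjusted p = 2.29e-17), the 507th largest. An unnamed locus on the opposite strand overlaps CALD1 and had 10 and 4 reads in the 2 genotypes, against 11994 and 2391 for CALD1.

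Tropomyosins run along the actin filament and gate the access of myosin. TPM1 (chromosome 10, 46993261 to 47022836) was at 2552, 2533 and 2522 CPM in knockout and 3277, 3263 and 3050 CPM in wild-type libraries. Knockout libraries were lower without overlap, by 1.26-fold (log2 fold change -0.33 ± 0.04, adjusted p = 5.52e-07). The median over the 606 tested genes of chromosome 10 was -0.28, and with it taken out the change of TPM1 was -0.05 (adjusted p = 0.268). An unnamed locus lies inside TPM1 on the same strand. It had 54 reads in knockout and 91 in wild-type libraries, against 136281 and 174781 for TPM1. TPM2 (chromosome 8, 59856503 to 59864645) was at 3.44, 2.56 and 2.56 CPM in knockout and 2.88, 2.89 and 3.01 CPM in wild-type libraries. These values overlapped, and the log2 fold change was -0.04 ± 0.20 (adjusted p = 0.868), from 153 and 160 reads. TPM2 was 0.198 ± 0.0341% of TPM1 and TPM2 reads per length in knockout and 0.161 ± 0.0104% in wild-type libraries (two-sided exact permutation p = 0.10, 0.125 adjusted). The difference of 0.0366 percentage points was 0.0169 without knockout replicate 1. With TPM3 and TPM4 also in the family, the share of TPM2 was 0.0779 ± 0.0141% in knockout and 0.0847 ± 0.00599% in wild-type libraries. The genotypes overlapped there, and the direction of the means was the opposite.

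ACTA2, the actin of vascular smooth muscle and of myoepithelial cells (chromosome 26, 10626803 to 10679430), was at 18.1, 18.6 and 18.1 CPM in knockout and 47.1, 44.2 and 44.5 CPM in wild-type libraries. Each knockout library was below each wild-type library, and the fall was 2.48-fold (log2 fold change -1.31 ± 0.07, adjusted p = 9.85e-12). Tested genes of chromosome 26 had a median of 0.45, and ACTA2 stood at -1.76 with that median taken out. FAS, a death receptor gene on the opposite strand, shares 851 bases with ACTA2. FAS was higher in knockout libraries (32.3 ± 2.29 against 22.5 ± 1.95 CPM), the opposite direction to ACTA2, although with the chromosome median taken out its change was 0.07 (adjusted p = 0.450). Whether the counting used strand is not stated in the labels or files, so reads in the shared bases cannot be told apart.

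Most actin RNA came from the cytoplasmic isoforms. ACTG1, cytoplasmic gamma-actin, rose from 6222 ± 262 to 10387 ± 296 CPM (log2 fold change 0.74 ± 0.04, adjusted p = 1.20e-11). ACTB, cytoplasmic beta-actin, was at 3964 ± 86.9 CPM in wild type and 4186 ± 128 CPM in knockout libraries and did not pass the test (0.08 ± 0.04, adjusted p = 0.0777), though it passed with DESeq2 size factors (0.09, adjusted p = 0.0450), by limma-voom (adjusted p = 0.0470) and without wild-type replicate 1 (adjusted p = 0.0433). The change of ACTB was itself the median of chromosome 25, and with that median taken out it was 1.33e-07 and did not pass. ACTA2 gave 0.0955 ± 0.00102% of the reads per length of these 3 actins in knockout and 0.333 ± 0.00776% in wild-type libraries (two-sided exact permutation p = 0.10, 0.125 adjusted). The skeletal, cardiac and enteric muscle actins ACTA1, ACTC1 and ACTG2 had 0 reads in all 6 libraries, which allows a level of up to 0.0277 CPM over the libraries together.

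Myosin II is built of heavy chains, essential light chains and regulatory light chains, and phosphorylation of the regulatory chain switches the motor on. MYL9 (chromosome 13, 65646954 to 65655870) was at 299, 293 and 291 CPM in knockout and 129, 126 and 114 CPM in wild-type libraries. The genotypes were well apart, with a 2.39-fold rise (log2 fold change 1.26 ± 0.05, adjusted p = 1.05e-13). The other regulatory light chains went in different directions, MYL12A rising by 0.43 ± 0.10 and MYL12B falling by 0.53 ± 0.06 on the log2 scale. Both lie on chromosome 24, where tested genes had a median of 0.37. With that median taken out MYL12A was at 0.06 and no longer passed (adjusted p = 0.636), and MYL12B was at -0.91.

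MYH11 (chromosome 25, 14124964 to 14252413) was close to the detection limit, with 4, 5 and 5 reads in knockout and 10, 21 and 22 in wild-type libraries. Knockout libraries were lower without overlap, and wild-type replicate 1 was the lowest of its group. The log2 fold change was -1.87 ± 0.44 (adjusted p = 0.00101), between -2.13 and -1.68 with a library left out. NDE1, a neurodevelopment gene on the opposite strand, overlaps MYH11 over 19248 bases and was read far more often (5214 and 4104 reads). NDE1 rose (0.37 ± 0.05), and its part in the MYH11 count was not tested.

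Non-muscle heavy chains made up nearly all myosin II. MYH9 rose from 1153 ± 101 to 1645 ± 61.1 CPM (0.51 ± 0.05, adjusted p = 2.15e-07), and MYH14 fell from 49.1 ± 8.61 to 21.4 ± 2.55 CPM (-1.20 ± 0.12, adjusted p = 3.42e-06). Per gene length MYH9 held 92.1 ± 0.0783% of heavy chain reads in knockout and 88.1 ± 0.191% in wild-type libraries. MYH11 held 0.0162 ± 0.00217% and 0.0806 ± 0.0245% (two-sided exact permutation p = 0.10, 0.125 adjusted).

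**Figure D2:**
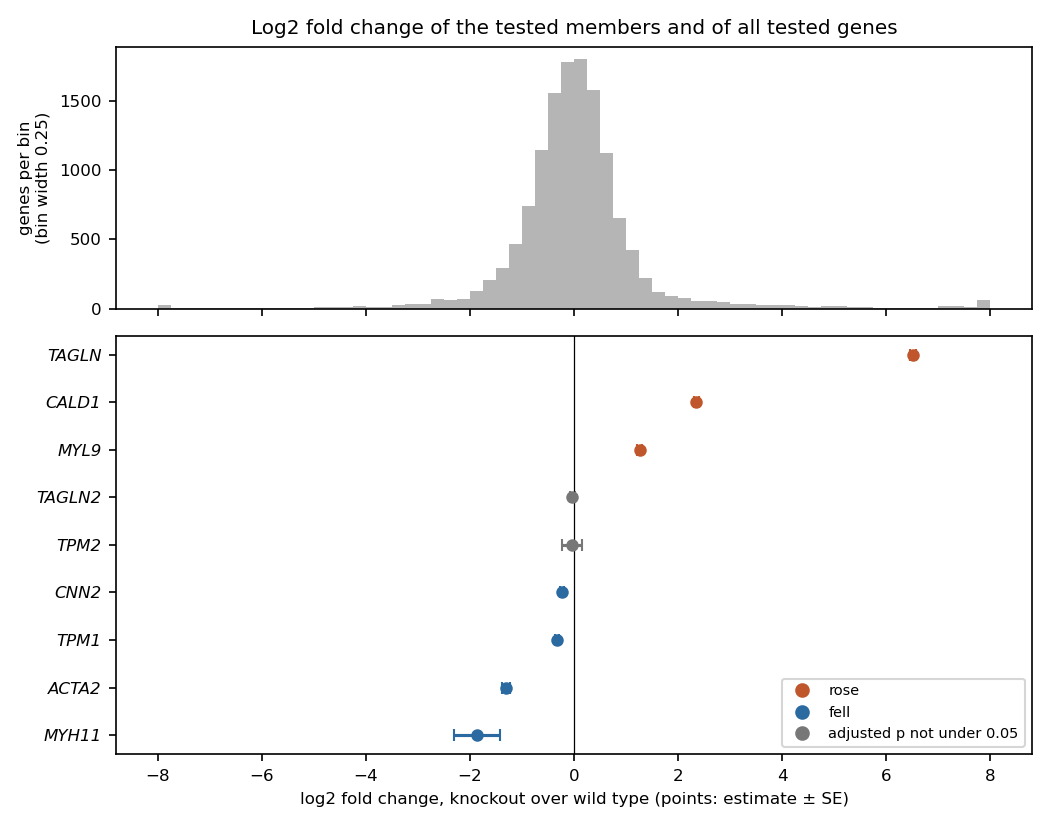
Log2 fold change (knockout over wild type) for the 9 tested members (lower panel, estimate ± SE) below the distribution over all 13390 tested genes (upper panel, with values beyond the axis placed in the end bins). TAGLN at 6.52 lies in the thin upper tail, and TPM1, CNN2, TAGLN2 and TPM2 lie in the central peak.

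**Figure D3:**
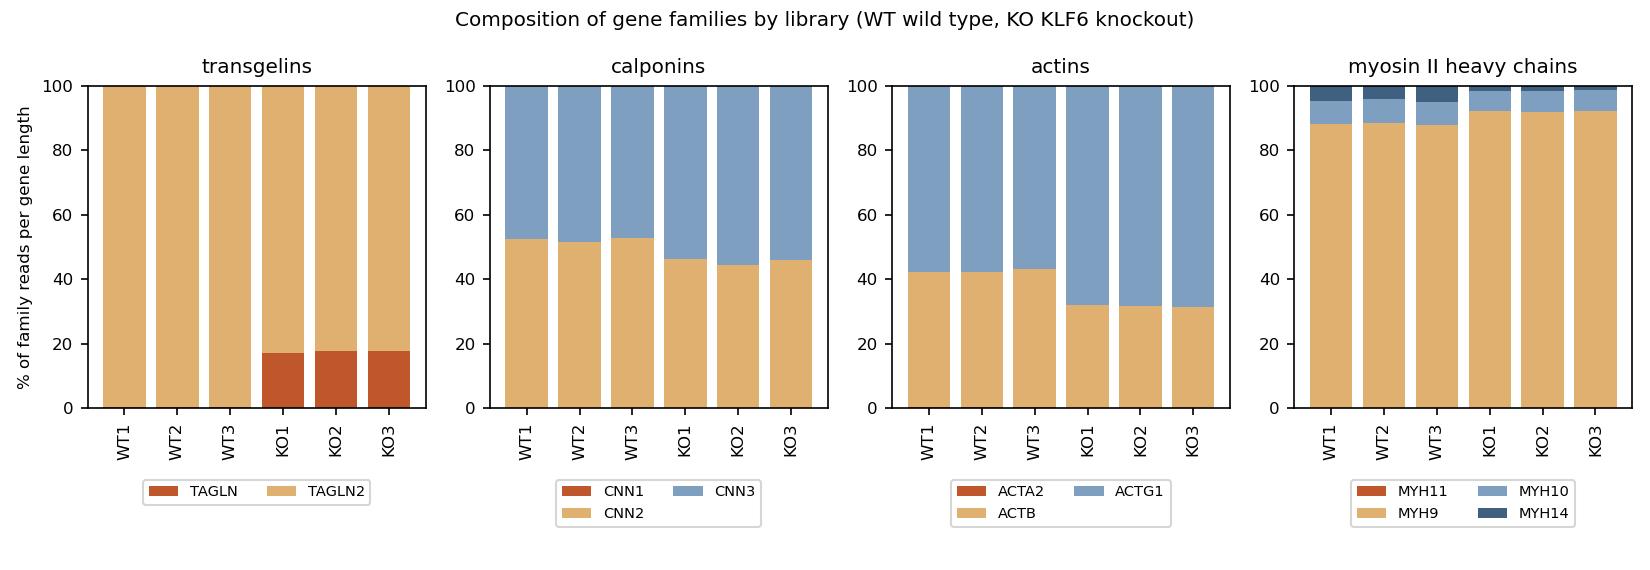
Share of each gene in the reads per gene length of 4 families, as stacked bars for each of the 6 libraries. TAGLN is visible only in the knockout bars (17.2% to 17.8%), whereas CNN1, ACTA2 and MYH11 are too small to be seen in any bar.

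The closest relatives of the set and the genes that act on the same filaments were counted from lists. No test of a list as a group was made, and the counts stand beside 37.1% of all tested genes that rose, 37.6% that fell and a median of -0.01. Among 9 tested paralogs, 7 rose and 2 fell, with a median of 0.40. MYL6, the essential light chain shared by smooth muscle and non-muscle myosin, rose from 939 ± 63.9 to 1558 ± 80.4 CPM. TAGLN3 had 0 reads.

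Of 7 tested genes of myosin light chain kinases and the myosin phosphatase, 4 rose and 2 fell (median 0.38). PPP1R14A, which inhibits the phosphatase, rose from 13.6 ± 1.53 to 37.2 ± 1.62 CPM, and the kinase gene DAPK3 from 134 ± 12.2 to 271 ± 13.2 CPM. PPP1CB, the catalytic phosphatase subunit, fell by 0.25 on the log2 scale. PPP1R12B, a targeting subunit, passed narrowly (-0.43, adjusted p = 0.0447), and did not pass without knockout replicate 2 or 3, without wild-type replicate 2 or 3 (adjusted p = 0.122 to 0.184) or under 4 other settings (DESeq2 size factors, limma-voom, the replicate block and DESeq2, adjusted p = 0.0509 to 0.0909). MYLK, the classical light chain kinase of smooth muscle, had 2 reads in knockout libraries and 0 in wild type. MYLK3, the cardiac form, did not pass the test (-0.51, adjusted p = 0.0861), though it did with its chromosome's median taken out (-0.82, adjusted p = 0.00854).

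SRF, which drives many contractile genes, rose from 33.5 ± 5.60 to 53.0 ± 1.64 CPM (0.66 ± 0.09, adjusted p = 7.30e-06). Its coactivator gene MRTFB fell from 29.3 ± 4.83 to 12.1 ± 0.510 CPM (-1.27 ± 0.11, adjusted p = 1.63e-08) and MRTFA fell slightly (-0.27 ± 0.08, adjusted p = 0.00414). MYOCD, the coactivator specific to smooth and cardiac muscle, had 2 reads in knockout libraries and 0 in wild type. Of the 8 tested genes of this list 3 rose, FHL2 among them at 0.35, 2 fell and 3 did not pass, including ELK3 (0.02) and TEAD1 (-0.09).

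Focal adhesion and stress fibre genes had 13 that rose and 4 that fell among 19, so 17 of 19 passed where 74.6% of all tested genes did, with a median of 0.37 against -0.01. SYNPO2 (myopodin, an actin-binding protein of muscle) rose from 1.27 ± 0.568 to 18.4 ± 0.273 CPM, and CSRP2, a LIM protein of smooth muscle, from 211 ± 11.8 to 559 ± 5.31 CPM. The adhesion linkers VCL (vinculin, -0.51) and TLN1 (talin, -0.48) fell, although VCL turned to 0.06 with the median of chromosome 28 taken out (adjusted p = 0.253). SYNPO (-0.06) did not pass, though it did with its chromosome's median taken out (-0.17, adjusted p = 0.00998).

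Genes of actin filament turnover had 4 that rose and 6 that fell among 13 (median -0.17). PFN2, a profilin, rose from 0.440 ± 0.0635 to 8.13 ± 0.991 CPM, and COTL1, an actin-binding protein of the ADF family, from 13.3 ± 0.526 to 90.2 ± 3.86 CPM. PFN2 passed the filter on low counts through the knockout libraries alone, so it is counted only because it was higher there. TMOD3, which caps pointed ends, fell by 0.74 and DSTN (destrin) by 0.49 on the log2 scale. CFL1 (0.04) and WDR1 (-0.04) did not pass, and with their chromosome's median taken out both passed as higher (0.30 and 0.15).

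**Figure D4:**
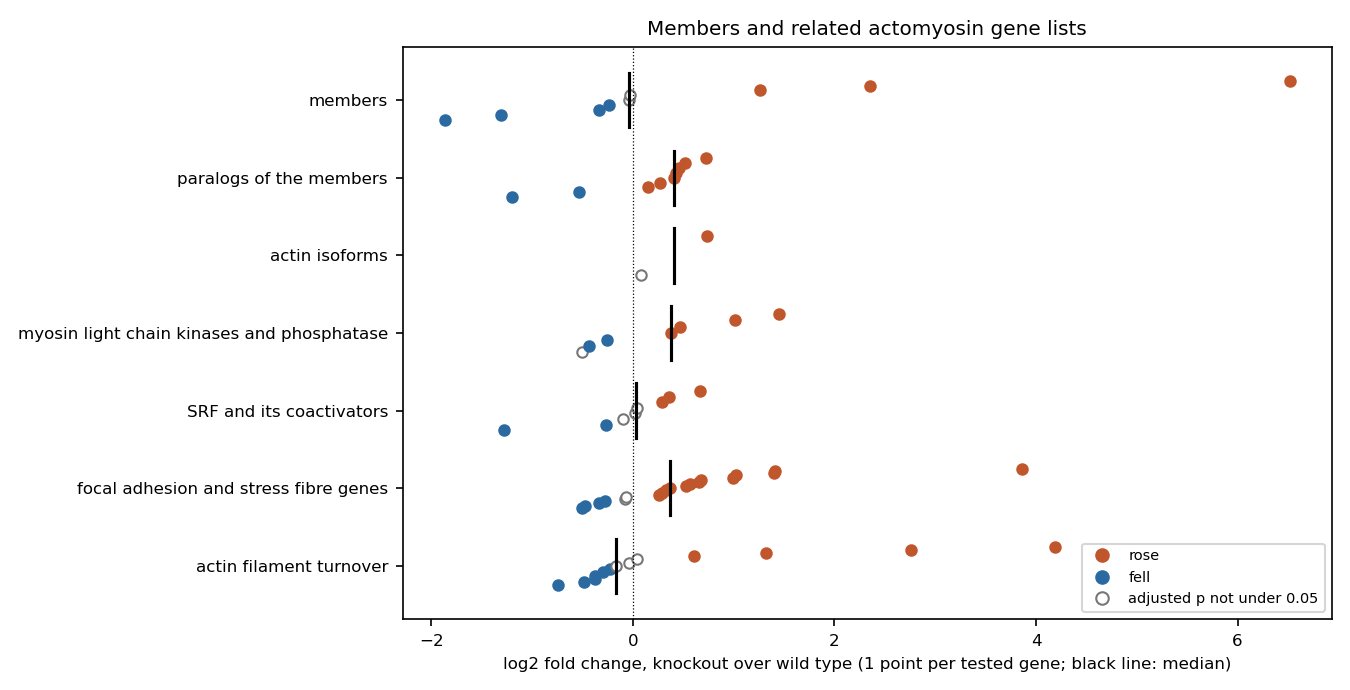
Log2 fold change of each tested gene in the set and in 6 related lists, 1 point per gene, filled where the adjusted p was under 0.05, with the median as a black line. Medians run from -0.17 for filament turnover to 0.41 for the actin isoforms, and TAGLN lies to the right of all other points.

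Markers of other contractile cells gave a mixed picture beside the rise of TAGLN, CALD1 and MYL9. Of 11 smooth muscle and pericyte markers 5 could be tested, of which SMTN (smoothelin), SYNM and MCAM rose (1.09, 1.29 and 2.21) and NOTCH3 and CSPG4 fell (-1.92 and -0.88). Their summed level was 201 to 219 CPM in knockout and 164 to 195 CPM in wild-type libraries. The defining markers DES and RGS5 had 0 reads in every library, as did ACTG2. Of 10 fibroblast markers, 1 rose and 5 fell among 8 tested, and their sum was lower in knockout libraries (699 to 744 against 3085 to 3250 CPM). DCN (decorin, 229 against 1134 CPM) and S100A4 (462 against 2011 CPM) made up nearly all of that sum. COL1A2, a collagen I chain and the fibroblast marker that rose, had 278 reads in knockout and 0 in wild-type libraries. COL1A2 likewise passed the filter on low counts through the knockout libraries alone.

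Of 7 tested basal and myoepithelial markers, 2 rose on the log2 scale, CDH3 by 1.47 and KRT14 by 0.76. The 5 that fell were KRT5 (-1.21), TP63 (-0.70), ITGA6 (-0.59), ITGB4 (-0.57) and KRT17 (-0.34). The summed level of the list was 4737 to 4800 CPM in knockout and 7975 to 8183 CPM in wild-type libraries. The oxytocin receptor gene OXTR had 0 reads in knockout libraries and 4 in wild type. Luminal markers had 1 that rose and 5 that fell among 9, with sums of 4107 to 4285 and 10934 to 12267 CPM. Endothelial markers summed to 30.8 to 32.6 CPM in knockout and 4.50 to 5.79 CPM in wild-type libraries, with KDR and CLDN5 at 0 reads. Of 3 tested, PECAM1 rose (31.3 against 0.219 CPM in wild type) and made up nearly all of the knockout sum. VWF (0.242 against 3.57 CPM) and TEK (0.187 against 0.951 CPM) fell. Each of the 3 passed the filter on low counts through 1 genotype alone, so each is counted only because it was higher there. Leukocyte markers summed to 152 to 154 and 56.8 to 61.9 CPM, with 2 that rose and 1 that fell among 4 tested and PTPRC at 0 reads. The part of these shifts in the levels of the 10 genes was not tested, and in bulk RNA a change in the share of a cell type cannot be told apart from a change in RNA per cell.

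The authors' deposited table, which lists 9532 genes under their own threshold, holds the same 7 members. It rests on the same 6 libraries, so it is not independent. For scale, 70.6% of the 13390 tested genes passed by DESeq2 here. The authors' log2 fold changes were 6.53 for TAGLN, 2.37 for CALD1, 1.27 for MYL9, -0.22 for CNN2, -0.32 for TPM1, -1.29 for ACTA2 and -1.88 for MYH11.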

How the data were processed

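The authors deposited raw counts per gene for 6 libraries, and HISAT2 2.0.5 and featureCounts 1.5.0-p3 are named in the submitters' processing notes. Genome build, annotation and strand setting are not stated there or in the file headers. The deposited comparison table holds a normalized signal per library (counts divided by 1 factor each), a log2 fold change and a p-value with its adjusted form, per the file headers, and only its log2 fold changes were used. Rows without an Ensembl identifier (630) held 0.807% to 0.884% of the counts and were kept in the fit. Libraries were grouped by genotype from the labels.

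Counts were compared with edgeR 4.0.16 (R 4.3.3): TMM scaling, filterByExpr (minimum count 10, total 15), robust quasi-likelihood test and Benjamini-Hochberg adjustment over 13390 genes at 0.05. The method was tested on simulated data in which 200 genes were changed, as many up as down. That is a far smaller share than the 74.6% called here, so the simulation does not cover this background. The SE is the log2 fold change divided by the square root of F. CPM use the TMM-scaled library, and CPM per kilobase use the gene length in the count file. Shares within a family were compared with an exact permutation test. Intervals were taken on the reads pooled by genotype, so they cover counting error only and not the spread between libraries. No molecular identifiers are mentioned, so reads may not be separate molecules.

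The members and lists were chosen with earlier results of these data known. Named were all members, KLF6, loci overlapping a member, and from the lists the 2 genes per direction with the largest change. Up to 2 abundant genes per list that did not pass were named as well, and every tested gene of lists of up to 5. The tested leukocyte markers and the fibroblast markers that did not pass are exceptions and are not named. A few others are named for their role or level, chosen after their values were seen. Alternatives were other scalings and filters, DESeq2 1.42.0, limma-voom (limma 3.58.1), the replicate number as a block, each chromosome's median taken out (as an offset, for chromosomes with at least 50 tested genes), and each library left out. A promoter motif search was not run, and 1 planned list and 1 gene are not reported here.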

Additional observations from a re-analysis of the deposited data

How the results depend on the processing

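The calls of TAGLN, CALD1, MYL9, ACTA2 and CNN2 kept their direction and side of the threshold under all 14 alternatives run. MYH11 did so under the 13 that tested it, and fell out under the filter of 1 CPM in 3 libraries. With each chromosome's median taken out, TPM1 was no longer called (-0.0504, adjusted p = 0.268) and TAGLN2 turned to 0.36; among the other named genes VCL (0.0595), WDR1 (0.15), ELK3 (-0.08) and TEAD1 (0.09) took the opposite sign, of which only WDR1 passed the test there. The alternatives were not counted for bta-mir-1584, KRT17, TP63, ITGA6, ITGB4, CD24, ELF3, VWF, TEK and the unnamed locus inside TPM1. Of the other values of the remaining tested genes named outside the set, 733 were on the same side of the threshold, 11 newly passed and 10 no longer passed. The cause was not tested. The number of called genes ranged from 9449 by DESeq2 to 10690 without a filter, and from 9497 to 10134 with a library left out, against 9991. Without division by length, the knockout minus wild-type difference in share was 19.4 percentage points for TAGLN (17.4 with length) and -0.317 for ACTA2 (-0.237 with length), since gene lengths differ. The difference in the CNN1 share (knockout minus wild type) ran from -0.00353 (without knockout replicate 1) to 0.0132 percentage points with a library left out, at 0 to 4 reads per library.

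With the replicate block, 4938 genes rose and 4956 fell, and the calls of the 10 genes did not change. The numbers name the libraries only: deviations of same-numbered libraries correlated at -0.05, 0.08 and -0.02, and knockout replicate 1 correlated best with wild-type replicate 3 (0.14). No symbol of the set stood on several rows, so summing rows was not run, and neither was the motif search. Depth limits CNN1, MYH11 and TPM2.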

Other observations

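The 2 families below were picked after their values were seen, and are given without a test. Per gene length, MYL9 held 16.3 ± 0.764% of the reads of the regulatory light chains MYL9, MYL12A and MYL12B in knockout libraries and 9.43 ± 0.706% in wild type. MYL12B went the other way, from 10.1 ± 0.781% to 5.04 ± 0.165%, while MYL12A stayed the main form at 78.7 ± 0.620% and 80.4 ± 1.47%.

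Among the tropomyosins TPM1 to TPM4, the share of TPM1 was 39.2 ± 0.348% in knockout and 52.4 ± 0.426% in wild-type libraries. TPM4 went from 28.2 ± 0.0812% in wild type to 36.5 ± 0.305% in knockout libraries and TPM3 from 19.3 ± 0.384% to 24.1 ± 0.383%. Their summed level per length was 1233 ± 8.74 CPM per kilobase in knockout and 1165 ± 53.0 in wild-type libraries. TPM1, the tropomyosin that fell, is a member of the set, and TPM3 and TPM4, which rose, are not. With the median of chromosome 10 taken out, the log2 fold change of TPM1 was -0.05 (edgeR adjusted p = 0.268).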
